A study of Homo sapiens with 2 samples.

Results

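The genes described here encode the subunits of the mTOR complexes mTORC1 and mTORC2 and the factors that assemble them. They were matched by gene symbol, and all 9 (MTOR, MLST8, DEPTOR, RPTOR, AKT1S1, RICTOR, MAPKAP1, TELO2 and TTI1) were among the 16424 genes with values. The study measured capped RNA by cap analysis of gene expression (CAGE), in which each short sequenced tag marks the 5′ end of a transcript. PLC/PRF/5, a human hepatoma cell line, was given medium with 3 µg/ml M2BPGi for 6 h (M2BPGi-treated cells) or medium without it (non-treated cells, 0 µg/ml), and each condition had 1 library. M2BPGi is a glycosylated form of Mac-2 binding protein that is used as a serum marker of liver fibrosis. The comparison asks whether transcripts of the mTOR pathway differ after exposure of hepatoma cells to this protein.

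With 1 library per condition, no difference given here has a replicate check, and no test of the conditions was possible. Values are CPM, the tags of a gene scaled to the size of its library, and are given for cells without and with M2BPGi in this order. Each transcript gives a tag at its start whatever its length, so that CPM can be compared between genes. The libraries held 24040217 tags (non-treated) and 24862961 tags (M2BPGi-treated), as read back from the CPM of 1 tag. The intervals below are exact 95% Clopper-Pearson intervals on these tags and cover counting error only.

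mTOR is a serine/threonine kinase that couples growth to nutrients, energy and growth factors. In mTORC1 it drives protein and lipid synthesis and restrains autophagy, and in mTORC2 it phosphorylates kinases such as AKT. In the liver the pathway takes part in the response to feeding, and it is often active in hepatocellular carcinoma.

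The 9 genes spanned a wide range of levels. AKT1S1 was the highest, with 132 CPM without and 138 CPM with M2BPGi. TELO2 was the lowest, with 3.66 and 2.37 CPM. The highest was 36.1 times the lowest in non-treated cells and 58 times in M2BPGi-treated cells. AKT1S1, MAPKAP1 and MLST8 together held 73.5% of the summed CPM of the 9 genes in non-treated cells and 76.2% in M2BPGi-treated cells. The sum itself was 443 CPM and 466 CPM. Among genes whose CPM averaged 1 or more, the median gene was at 21.3 CPM without and 20.4 CPM with M2BPGi.

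In non-treated cells the order from the top was AKT1S1, MAPKAP1, MLST8, TTI1, RICTOR, MTOR, RPTOR, DEPTOR and TELO2. The same order held in M2BPGi-treated cells for 7 of the 9 genes, while MLST8 moved from rank 3 to rank 2, above MAPKAP1. Each gene differed from its neighbour in this order by more than the counting error, except MLST8 and MAPKAP1 in M2BPGi-treated cells. There the MAPKAP1 to MLST8 ratio was 0.954 (0.904 to 1.01), against 1.35 (1.27 to 1.43) in non-treated cells.

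**Figure D1:**
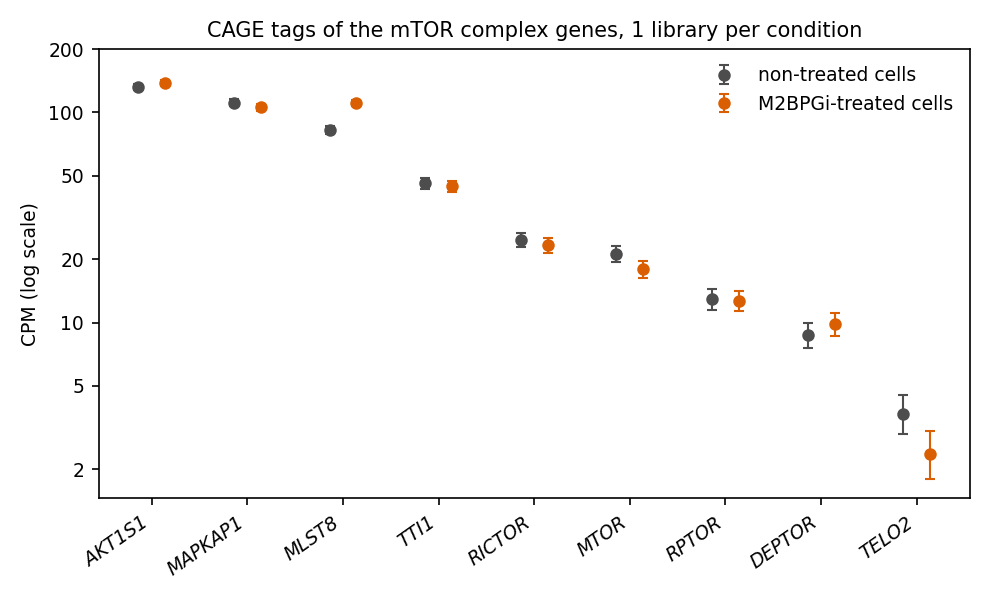
CPM of each gene (log scale) in non-treated and M2BPGi-treated cells, 1 library each, ordered by the level in non-treated cells; bars are exact 95% binomial intervals for counting error. MLST8 stands higher in M2BPGi-treated cells (111 against 82.5 CPM) and TELO2 lower (2.37 against 3.66 CPM).

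Differences between the libraries are given as log2 ratios, treated over non-treated, of CPM plus a pseudocount of 1, a scale on which low genes appear less changed than they are. They were set beside those of the 13724 genes whose CPM averaged 1 or more, among them all 9 members. Of the 9 genes, 3 were higher in M2BPGi-treated cells (MLST8, DEPTOR and AKT1S1) and 6 were lower, beside 42.9% higher over all 13724 genes. RPTOR and TTI1, both close to 0, stood on the higher side once the libraries were scaled so that the median gene had a log2 ratio of 0. The median log2 ratio of the 9 genes was −0.05, and that of all 13724 genes was −0.05 as well.

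On this scale, with the pseudocount of 1 CPM, 0 of the 9 genes were at least 1.5-fold different, beside 5.63% of all genes. Without a pseudocount the CPM of TELO2 were 1.54-fold lower with M2BPGi. At least 2-fold, the count was 0 of 9, beside 0.67% of all genes. The 1.5-fold differences over all genes were split into 219 higher and 554 lower, and into 298 higher and 412 lower after the rescaling. The counting interval did not include 0 for 3 of the 9 genes, which were MLST8 (higher), MTOR (lower) and TELO2 (lower). Over all genes this share was 54.2%, with 22.8% above 0 and 31.5% below 0, so that the members were not set apart by it. In an alternative chosen after the data were seen, the intervals were set against the median log2 tag ratio of all genes (−0.06) in place of 0. Then 2 of the 9 genes lay above it (MLST8 and AKT1S1) and 1 below it (TELO2), beside 28.2% and 25.6% of all genes.

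**Figure D2:**
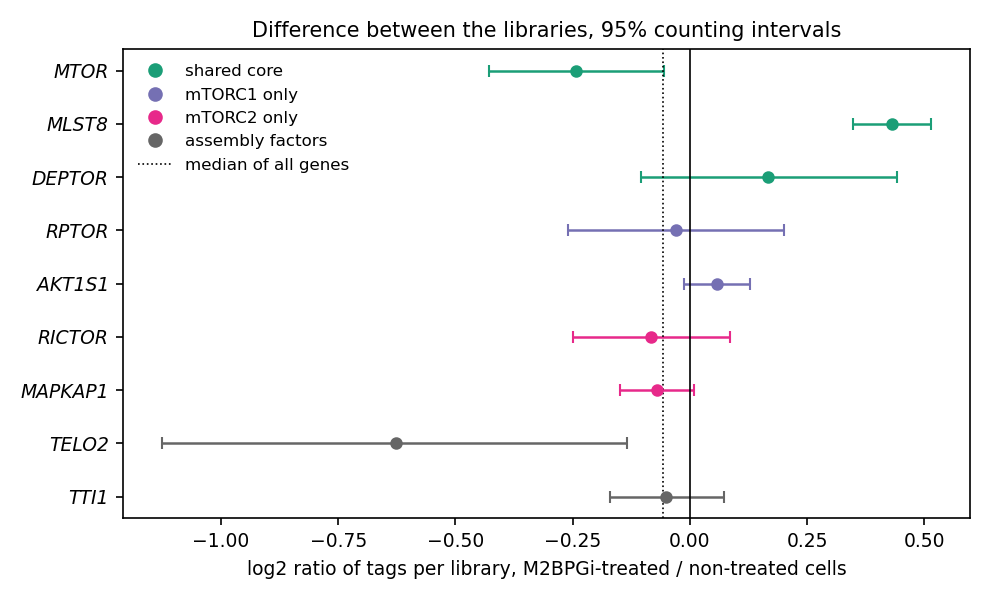
Log2 ratio of the tags of each gene per library, M2BPGi-treated over non-treated cells, without a pseudocount; bars are exact 95% counting intervals, colours give the role and the dotted line is the median of the 13724 genes (−0.06). The intervals of MLST8, MTOR and TELO2 do not include 0, and those of the other genes do.

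The subunits shared by both complexes came out on different sides. MTOR (ENSG00000198793), which encodes the catalytic kinase, was at 21.2 CPM without and 17.9 CPM with M2BPGi, from 509 and 445 tags. Its log2 ratio was −0.23, with a counting interval of −0.43 to −0.06. This interval included the median log2 tag ratio of all genes (−0.06). By its log2 ratio, MTOR was above 27.7% of all genes.

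MLST8 (ENSG00000167965) encodes a WD-repeat protein that binds the kinase domain of mTOR and stabilises it. It was at 82.5 CPM without and 111 CPM with M2BPGi, from 1984 and 2766 tags. The log2 ratio of 0.43 (0.35 to 0.51) corresponded to a 1.35-fold higher level and was above that of 95.4% of all genes. This was the highest log2 ratio among the 9 genes. MLST8 lies on chromosome 16 at 2204248 to 2209416 on the forward strand (GRCh38, GENCODE v29).

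DEPTOR (ENSG00000155792) encodes an inhibitor of the kinase that binds both complexes. It was at 8.74 CPM (210 tags) without and 9.81 CPM (244 tags) with M2BPGi. The log2 ratio was 0.15 (−0.10 to 0.44), and a difference was not detectable at this depth.

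Of the subunits found only in mTORC1, RPTOR (ENSG00000141564) encodes the scaffold that recruits substrates. Its values were nearly equal, with 12.9 CPM (311 tags) without and 12.7 CPM (315 tags) with M2BPGi. The log2 ratio was −0.03 (−0.26 to 0.20). AKT1S1 (ENSG00000204673) encodes PRAS40, an inhibitory subunit that AKT phosphorylates. Its levels of 132 and 138 CPM rested on 3176 and 3420 tags, the most of the 9 genes. The log2 ratio was 0.06 (−0.01 to 0.13). This interval included 0 and lay above the median log2 tag ratio of all genes.

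Of the subunits found only in mTORC2, RICTOR (ENSG00000164327) encodes the scaffold that defines this complex. It was at 24.8 CPM (595 tags) without and 23.4 CPM (581 tags) with M2BPGi, a log2 ratio of −0.08 (−0.25 to 0.08). MAPKAP1 (ENSG00000119487) encodes SIN1, which positions AKT for phosphorylation by mTORC2. It was at 111 CPM (2679 tags) without and 106 CPM (2639 tags) with M2BPGi. The log2 ratio was −0.07 (−0.15 to 0.01). Neither gene differed by more than the counting error.

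TELO2 (ENSG00000100726) and TTI1 (ENSG00000101407) encode parts of the TTT co-chaperone, which helps newly made mTOR and related kinases to fold and assemble. TELO2 was at 3.66 CPM without and 2.37 CPM with M2BPGi, from 88 and 59 tags. The ratio of these levels was 0.648 without a pseudocount, with a log2 interval of −1.13 to −0.13. With the pseudocount the log2 ratio was −0.47, above that of 8.1% of all genes. TTI1 was at 46.0 CPM (1106 tags) and 44.4 CPM (1105 tags), a log2 ratio of −0.05 (−0.17 to 0.07). The partners of the same co-chaperone thus differed more than 10-fold in level, with a TTI1 to TELO2 ratio of 12.6 (10.1 to 15.8) without and 18.7 (14.4 to 24.8) with M2BPGi.

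Ratios of genes within a library do not depend on how the libraries are scaled. The RPTOR to RICTOR ratio, which sets the defining scaffold of mTORC1 against that of mTORC2, was 0.523 (0.454 to 0.601) in non-treated cells and 0.542 (0.471 to 0.623) in M2BPGi-treated cells. The second was 1.04 times the first (0.85 to 1.27). RICTOR therefore gave more tags than RPTOR in both libraries, and the ratio did not differ by more than the counting error.

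Of the 36 pairs among the 9 genes, 16 had a ratio that differed between the libraries by more than its own 95% counting interval, with no adjustment for the number of pairs. MLST8 was in 7 of these and TELO2 in 7, with the MLST8 to TELO2 pair counted for both. The pairs share the values of the same 9 genes, and the share over pairs of other genes was not computed. The count is therefore not read as particular to these genes. The MLST8 to MTOR ratio was 3.9 (3.53 to 4.3) without and 6.22 (5.62 to 6.89) with M2BPGi, which is 1.59 times as high (1.38 to 1.84). Against RPTOR, MLST8 was 1.38 times as high (1.16 to 1.63), and against RICTOR 1.43 times (1.25 to 1.63). MLST8 thus gained on the kinase and on both scaffolds. The AKT1S1 to RPTOR ratio was 10.2 in non-treated and 10.9 in M2BPGi-treated cells, and the MAPKAP1 to RICTOR ratio was 4.5 and 4.54. The treated over non-treated quotients of these ratios were 1.06 (0.899 to 1.26) and 1.01 (0.887 to 1.15), and a difference of either of these 2 ratios was not detectable at this depth.

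Tags are read at promoters, so the bases before the starts of the kinase gene, the scaffold genes and TELO2, the gene with the lowest log2 ratio, are shown. Promoters of 6 of the 9 genes were taken by symbol from the RefSeq table (GRCh38.p14). Those of MLST8, AKT1S1 and DEPTOR were not taken, which does not show that the table lacks them. Each sequence is the 250 bases before the start annotated in that table, 5′ to 3′ on the strand of the gene. Starts in GENCODE v29 differ from these, and the windows of RPTOR, RICTOR, TELO2, MAPKAP1 and TTI1 run past them into the gene. MTOR is chr1:11262552-11262801 on the reverse strand, RPTOR chr17:80544588-80544837 on the forward strand, RICTOR chr5:39074400-39074649 on the reverse strand and TELO2 chr16:1493110-1493359 on the forward strand. Capitals mark matches on either strand to the motifs searched.
MTOR: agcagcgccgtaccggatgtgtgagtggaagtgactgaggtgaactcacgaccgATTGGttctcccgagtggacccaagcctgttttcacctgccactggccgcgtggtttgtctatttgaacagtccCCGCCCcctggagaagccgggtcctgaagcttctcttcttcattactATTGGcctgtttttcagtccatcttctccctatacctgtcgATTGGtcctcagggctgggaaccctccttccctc
RPTOR: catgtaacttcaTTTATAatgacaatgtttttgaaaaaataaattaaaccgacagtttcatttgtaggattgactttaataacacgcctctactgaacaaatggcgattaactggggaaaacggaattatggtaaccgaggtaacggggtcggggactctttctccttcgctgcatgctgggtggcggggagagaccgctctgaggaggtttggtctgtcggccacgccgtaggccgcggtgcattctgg
RICTOR: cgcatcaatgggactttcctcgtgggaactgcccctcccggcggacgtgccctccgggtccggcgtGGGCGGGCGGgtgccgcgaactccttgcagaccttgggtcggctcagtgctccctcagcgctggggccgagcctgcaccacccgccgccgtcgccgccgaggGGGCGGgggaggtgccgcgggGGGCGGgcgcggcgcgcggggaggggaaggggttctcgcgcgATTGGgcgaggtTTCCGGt
TELO2: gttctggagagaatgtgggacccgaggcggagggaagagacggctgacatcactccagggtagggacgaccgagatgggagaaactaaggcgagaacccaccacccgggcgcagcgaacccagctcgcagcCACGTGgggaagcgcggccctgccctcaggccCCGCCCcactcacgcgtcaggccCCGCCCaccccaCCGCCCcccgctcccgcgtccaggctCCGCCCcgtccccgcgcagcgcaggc

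The motifs were the CCAAT box (CCAAT), the GC box (GGGCGG), the TATA box (TATAAA), the E-box (CACGTG), the ETS core (CCGGAA), the NRF1 core (CGCATGCG) and the cAMP element (TGACGTCA). In the same 250 bases of all 35116 promoters in the table, 32% held a CCAAT box, 42.6% a GC box, 10.7% a TATA box, 6.34% an E-box, 14.5% an ETS core, 1.73% an NRF1 core and 1.65% a cAMP element. The MTOR promoter held 3 CCAAT boxes, whose first bases lay at −196, −75 and −34 from the start, and 1 GC box at −122. The RICTOR promoter held 4 GC boxes, at −184, −180, −82 and −61, of which the first pair overlap, a CCAAT box at −19 and an ETS core at −7. TELO2 had 4 GC boxes and 1 E-box at −119. RPTOR had 1 TATA box match, at −238, and no other match. The windows differed in base composition, with 47.2% G and C for RPTOR, 55.6% for MTOR, 72.4% for TELO2 and 76% for RICTOR. Of the promoters not shown, that of MAPKAP1 held the NRF1 core, at −143, with 1 GC box and 3 matches to the ETS core, of which those at −27 and −25 overlap on opposite strands, and that of TTI1 held 2 ETS cores. A match describes the letters in the window and no more.

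Position and length were not used to choose the genes. In GENCODE v29 (GRCh38), no near-identical copy of the 9 genes was found elsewhere among annotated transcripts (at least 95% identity over at least 100 bases of the first 500). TTI1 starts 78 bp from RPRD1B, which lies on the opposite strand. RPRD1B was at 21.5 CPM and 18.5 CPM, a log2 ratio of −0.20 (−0.40 to −0.03), against −0.05 for TTI1.

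The log2 ratio moved with transcript length across all genes. With the genes in 4 groups of equal size by length, the median log2 ratio was 0.03 in the group with the shortest transcripts and −0.12 in that with the longest. MTOR (8677 nt), RICTOR (9543 nt) and RPTOR (6408 nt) were in the longest group. MLST8 (2116 nt) and DEPTOR (2569 nt) were in the second shortest group, where the median was −0.03. TELO2 (3314 nt) was in the next group, at a median of −0.07. The part of transcript length in the differences of the members was not tested.

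**Figure D3:**
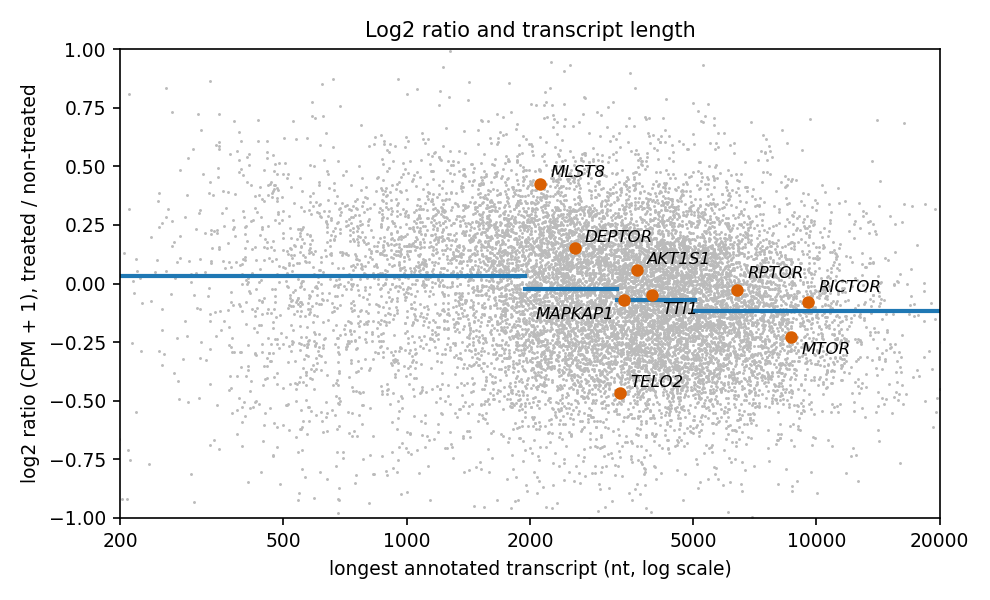
Log2 ratio, treated over non-treated cells (pseudocount of 1 CPM), against the longest annotated transcript (nt, log scale) for genes whose CPM averaged 1 or more (grey), of which 327 lie beyond the axes; blue lines are the medians of 4 equal groups by length and orange points are the 9 genes. The medians run from 0.03 in the shortest to −0.12 in the longest group, with MLST8 at 0.43 and MTOR at −0.23.

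The genes with the levels most like those of the kinase and the scaffolds were found by the distance in log2 CPM over both libraries. For MTOR they were SPAG5 (21.1 and 18.0 CPM in non-treated and M2BPGi-treated cells) and CEP350 (21.3 and 18.1 CPM), at distances of 0.013 and 0.02. For RPTOR they were ZNF445 and KIFAP3, at 0.0045 and 0.014. For RICTOR they were SERAC1 and ZNF558, at 0.007 and 0.014. Such a distance rests on 2 values per gene.

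Of 7 other genes of the TTT complex, its R2TP partner and the chaperone HSP90, 2 had a counting interval above 0 and 2 had one below 0, beside 22.8% and 31.5% of all genes. Both of the lower genes encode HSP90. Set against the median of all genes, 3 lay above (RUVBL1 among them) and 2 below, beside 28.2% and 25.6% of all genes. TTI2, the third TTT subunit, was at 13.8 CPM without and 15.4 CPM with M2BPGi, a log2 ratio of 0.14 (−0.06 to 0.37). RUVBL2, an AAA+ ATPase, was at 96.0 and 122 CPM, a log2 ratio of 0.35 (0.27 to 0.43), the highest of the list. Its partner RUVBL1 was at 85.3 and 89.2 CPM, with a log2 ratio of 0.06 (−0.02 to 0.15). RPAP3 was higher, at 0.15 (0.04 to 0.26), and PIH1D1 was at 0.01 (−0.12 to 0.15). The chaperone gene HSP90AA1 had the lowest log2 ratio, −0.24 (−0.27 to −0.22), and HSP90AB1 was at −0.13 (−0.18 to −0.08). RUVBL2, HSP90AA1 and HSP90AB1 match transcripts of other genes nearly identically over part of their first 500 bases, so their tags could have been split. The counting interval of TELO2 contained the log2 ratio of HSP90AA1, and TTI1 lay within the range of these genes.

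The other kinases of the PIKK family, which the same co-chaperone serves, had log2 ratios below 0, as did most genes (42.9% of all genes were higher), and TRRAP was on the higher side after the rescaling. ATM was at 19.7 CPM without and 13.0 CPM with M2BPGi, a log2 ratio of −0.57 (−0.82 to −0.40). SMG1 was at 25.9 and 19.7 CPM, a log2 ratio of −0.38 (−0.57 to −0.22), and ATR at −0.22 (−0.39 to −0.07). PRKDC (−0.07, −0.15 to 0.02) and TRRAP (−0.03, −0.22 to 0.16) did not differ by more than the counting error. The list had 3 of 5 intervals below 0, beside 31.5% of all genes. The same 3 lay below the median of all genes, beside 25.6% of all genes. Its median log2 ratio was −0.22. SMG1 and ATM have near-identical stretches elsewhere in the annotation, and their values are uncertain to that extent. These kinases also have long transcripts, and the part of length was not tested.

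PRR5, which encodes a partner of RICTOR in mTORC2, was at 21.3 CPM without and 20.4 CPM with M2BPGi, a log2 ratio of −0.05 (−0.24 to 0.12). This was close to the values of RICTOR and MAPKAP1. PRR5-ARHGAP8, a readthrough gene of the same locus, was listed separately, and tags of their shared part could have been counted for either.

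Upstream of mTORC1, the Rag GTPases and the Ragulator recruit the complex to the lysosome. The list held their genes and SLC38A9, 10 genes together. Of these 10 genes, 5 had a counting interval above 0, beside 22.8% of all genes, and 2 had one below 0 (SLC38A9 and RRAGB), beside 31.5%. The median log2 ratio was 0.10. Set against the median of all genes, 6 lay above and 1 below (SLC38A9), beside 28.2% and 25.6% of all genes. RRAGD was the highest, at 31.7 CPM without and 42.0 CPM with M2BPGi (log2 ratio 0.40, 0.27 to 0.54). SLC38A9, an arginine sensor of the lysosome, was the lowest, at 16.9 and 13.3 CPM (−0.33, −0.56 to −0.13). Of the genes with an interval above 0, LAMTOR1, LAMTOR2, LAMTOR4 and LAMTOR5 were in the group with the shortest transcripts (median log2 ratio 0.03). RRAGA, at −0.05, was in this group too, while RRAGD (4900 nt) was not. The part of length was not tested.

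RHEB, the GTPase that activates mTORC1, was the 1 gene of the pathway lists that was at least 1.5-fold different with the pseudocount of 1 CPM, beside 5.63% of all genes. Without a pseudocount ATM and TELO2 passed this fold too. It was at 21.0 CPM without and 110 CPM with M2BPGi, a log2 ratio of 2.34 (2.25 to 2.53). RHEB has 3 near-identical copies in the annotation, among them RHEBP2, so that its value is uncertain. Of the genes of the TSC complex, which switches RHEB off, TSC1 was at 0.01 (−0.22 to 0.24), TSC2 at −0.19 (−0.38 to −0.02) and TBC1D7 at 0.18 (0.06 to 0.32). The interval of TSC2 included the median of all genes. The member with the highest log2 ratio, MLST8, was at 0.43.

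Among 13 genes of mTORC1 substrates, 5 had a counting interval above 0, beside 22.8% of all genes, and 3 had one below 0, beside 31.5%. The median log2 ratio was −0.01. Set against the median of all genes, 5 lay above and 1 below, beside 28.2% and 25.6% of all genes. EIF4EBP1, a repressor of cap-dependent translation, was the highest, at 173 CPM without and 250 CPM with M2BPGi (0.52, 0.47 to 0.58). LPIN1, a phosphatidate phosphatase, was the lowest, at 15.1 and 11.5 CPM (−0.36, −0.62 to −0.16). Among the genes of mTORC2 substrates, 9 had a CPM that averaged 1 or more, and the intervals of 9 of 9 included 0, while 54.2% of all genes had one that did not. Set against the median of all genes, 1 lay above (AKT1) and 0 below, beside 28.2% and 25.6% of all genes. The 9 mTORC2 substrate genes ran from PRKCZ (8.03 and 6.56 CPM, log2 ratio −0.26) to AKT1 (44.1 and 47.8 CPM, log2 ratio 0.11). Intervals that include 0 do not show that these genes were unchanged.

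DEPTOR protein is removed through a ubiquitin ligase, and the 6 genes listed for this turnover were on the higher side in M2BPGi-treated cells, beside 42.9% of all genes. The counting interval was above 0 for 4 of the 6, beside 22.8% of all genes, and above the median of all genes for 5, beside 28.2%. RBX1 was the highest, at 153 CPM without and 193 CPM with M2BPGi (log2 ratio 0.34, 0.28 to 0.40). FBXW11 was at 0.30 (0.20 to 0.41), SKP1 at 0.29 (0.25 to 0.33) and CSNK1A1 at 0.28 (0.17 to 0.40). CUL1 (0.11, −0.04 to 0.26) and BTRC (0.02, −0.17 to 0.21) did not differ by more than the counting error. SKP1 and CSNK1A1 have near-identical copies. The median log2 ratio of this list was 0.28.

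**Figure D4:**
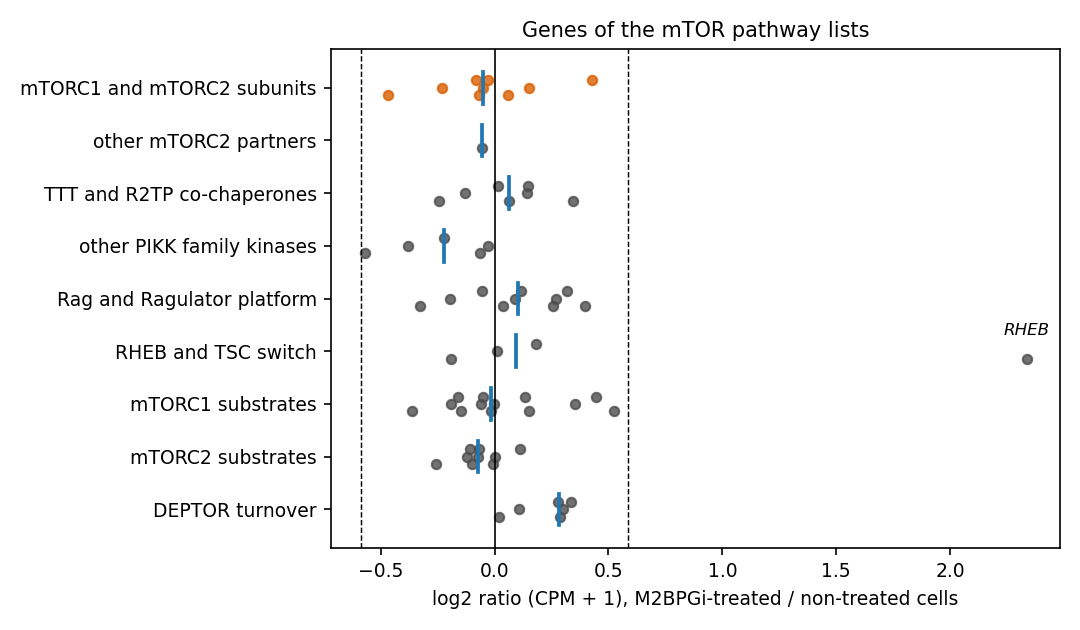
Log2 ratio, treated over non-treated cells (pseudocount of 1 CPM), for the mTOR complex genes (orange) and the other lists of the pathway (grey); genes whose CPM averaged under 1 are left out, blue bars are medians, dashed lines are 1.5-fold and the vertical offset of points only separates them. RHEB at 2.34 lies outside the dashed lines, and the 9 complex genes run from −0.47 to 0.43.

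The identity of the cells was checked with marker genes. All 10 hepatocyte markers were listed, with a summed level of 2429 CPM without and 1741 CPM with M2BPGi, and 8 of 10 had a counting interval below 0, beside 31.5% of all genes. Set against the median of all genes, 6 lay below, beside 25.6%. FGB, the most abundant, was at 950 and 623 CPM (log2 ratio −0.61, −0.64 to −0.58), and AFP was at 695 and 566 CPM. ALB, a defining marker of mature hepatocytes, was at 8.82 and 7.04 CPM, and HNF4A had the highest log2 ratio, 0.16 (0.04 to 0.29). Of 7 stromal markers, COL1A1 (0.67 and 0.76 CPM) and COL3A1 (4.53 and 3.42 CPM) were listed. Of 7 macrophage markers, PTPRC and CSF1R were listed, at 0 in both libraries, which allows up to 0.125 CPM without and 0.121 CPM with M2BPGi. The 5 endothelial markers were not among the listed genes. The lower hepatocyte markers stand beside the differences of the members, and their part in them was not tested. In bulk RNA, fewer expressing cells and less RNA per cell cannot be told apart.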

How the data were processed

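CAGE was made from 1 library of non-treated and 1 library of M2BPGi-treated PLC/PRF/5 cells. The authors deposited CPM per gene, rounded to 2 decimals. The paper names BWA for mapping and CAGEr for clustering, after removal of ribosomal tags. It names a mouse genome, whereas the identifiers are human, and the submitters' processing notes list hg19, BWA and HISAT2. The assignment of tags to genes is not given in the sources used here.

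Tag numbers were read back as whole multiples of the CPM of 1 tag (0.0416 and 0.0402 CPM). Within 0.0052 CPM plus 2e-06 of the value, 100% of values above 0 were whole in each library. They served for exact 95% Clopper-Pearson intervals of the tag ratio and, for pairs, exact conditional intervals of the odds ratio, which cover counting error only and compare the libraries, not the conditions. No p-value was computed from them. A count of 0 was taken to allow 3 tags. Log2 ratios used a pseudocount of 1 CPM and genes whose CPM averaged 1 or more. Alternatives were pseudocounts of 0.1 and 5 CPM, an average of 10 CPM or more, no filter and a rescaling to a median log2 ratio of 0.

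Transcript lengths, found for 96.7% of the genes, and neighbours came from GENCODE v29. Copies were searched with BLAST+ 2.17.0, and Python 3.11.15 with scipy 1.17.1 was used. The procedure was tested on simulated data. The members and gene lists were chosen with earlier results of these data known. All 9 members were named, with the highest and lowest log2 ratio of each other list. Also named were every gene with values in lists of up to 7, and the 2 genes nearest to MTOR, RPTOR and RICTOR. Neighbours, transcript lengths and motifs were chosen after the data were seen, as were the names AFP and ALB. Results that need 2 other genes are not reported here.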

Additional observations from a re-analysis of the deposited data

How the results depend on the processing

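No paired analysis was possible because the conditions had 1 library each. The median log2 ratio of the 9 genes moved from −0.05 to 0.0029 under the rescaling, and the RPTOR to RICTOR ratio with a pseudocount of 1 CPM was 0.541 and 0.561. Of 27 values of single members under another pseudocount or scaling, 27 lay within the counting interval of the gene, and 2 were no longer negative under the rescaling (RPTOR at 0.02 and TTI1 at 0.00). Set against the median log2 tag ratio of all genes, an alternative chosen after seeing the data, the counting intervals of 2 members lay above (against 1 above 0) and of 1 below (against 2 below 0). The number of members higher in M2BPGi-treated cells became 5 under the rescaling. With a pseudocount of 0.1 CPM, 1 member was at least 1.5-fold different (TELO2, at −0.61), and so were 1190 genes, against 773 with 1 CPM, while 215 were at least 2-fold different, against 92. With 5 CPM these counts were 255 and 39. With an average of 10 CPM or more, which left out DEPTOR and TELO2, they were 358 and 47, as fewer genes entered. The planned scaling and calls that need counts (TMM, a binomial test and an exact test with an assumed variation) were not run: a check of the low CPM of non-treated cells for whole counts, with a tolerance finer than their rounding, was not passed, and the tags read back served for intervals only. The depth limits TELO2 and DEPTOR most.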
